A study of Homo sapiens with 29 samples.

Results

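The 10 genes described here are components, regulators and targets of the NF-kB pathway. They are the chemokine genes CXCL8, CXCL1, CXCL2 and CXCL3, the subunit genes NFKB1, NFKB2 and RELB, the feedback genes NFKBIA and TNFAIP3, and BIRC3. They were taken by symbol from the 38148 genes of the deposited RNA table, and each was found. All 10 passed the filter on low values (at least 0.25 RPM, reads scaled to library size, in at least 4 libraries), as did 17973 genes in all. In the companion chromatin immunoprecipitation (ChIP) table, 11 of 49916 regions carry the symbol of 1 of these genes.

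The cells were HCT116, an established line from a human colorectal carcinoma, transfected with siRNA to DAXX (the gene of an H3.3 histone chaperone) or with non-targeting siRNA. Each siRNA was combined with crotonate, a short-chain fatty acid, at 10 mM or with none, which gives 4 groups of 4 RNA libraries. The labels give 35 nM for DAXX siRNA and 25 nM for the non-targeting siRNA, so target and dose of the siRNA cannot be told apart. For crotonate the series text gives 18 h and the sample protocol 48 h. For ChIP the antibody recognised crotonyllysine (Kcr), an acyl mark of histones and other proteins. It was used in 4 libraries for each siRNA without crotonate and 2 for each with it. The 1 input library is labelled as DAXX siRNA. RNA libraries held 35.0 to 55.1 M reads, with 38.2 to 55.1 M in the group with non-targeting siRNA and crotonate and 35.0 to 45.7 M in that without crotonate. DAXX itself lay between 95.2 and 105 RPM in the 8 libraries with non-targeting siRNA and between 13.1 and 27.4 RPM in the 8 with DAXX siRNA. Of 9 epithelial markers, 8 reached 1 RPM and CDX1 had no read. Among 13 leukocyte markers, which matter for chemokine genes, CD68 alone reached 1 RPM and CD3D, MS4A1 and FCGR3A had no read, with sums of 8.09 to 14.1 RPM per library. Of 11 fibroblast and endothelial markers 9 stayed under 1 RPM and DCN and LUM had no read, but the sum was 19.1 to 29.0 RPM with crotonate and 11.95 to 22.3 RPM without. The part of those markers in the results below was not tested.

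NF-kB is a family of dimeric transcription factors held in the cytoplasm by inhibitory IkB proteins until the IkB kinase complex is activated by receptors such as those of TNF and interleukin 1. Released dimers bind kappa B sites in DNA and switch on chemokines that attract neutrophils, together with genes that close the loop. Of the latter, NFKBIA encodes the inhibitor IkB alpha and TNFAIP3 the ubiquitin-editing enzyme A20. BIRC3 encodes the ubiquitin ligase cIAP2. In the colon epithelium the pathway is known for the response to microbes and for its activity in colorectal carcinoma.

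The start-proximal DNA of these genes shows the sites by which the group is known, and is printed here for 8 of them, the chemokine genes and each gene called below. Promoter windows came from RefSeq (GRCh38.p14) and run from 250 bases before to 50 after a start. They matched 9 of the 10 genes in 12 windows, and RELB was not matched. NFKB2, which was called in no RNA comparison, is counted but not printed. Capitals mark matches on either strand to the kappa B consensus or to the site GGAATTTCC, which can overlap each other. In CXCL8 capitals also mark an AP-1 type site (TGANTCA) and a TATA box (TATAAA). Each stretch is given 5′ to 3′ on the gene's own strand.
CXCL8, chr4:73740419-73740549, plus strand: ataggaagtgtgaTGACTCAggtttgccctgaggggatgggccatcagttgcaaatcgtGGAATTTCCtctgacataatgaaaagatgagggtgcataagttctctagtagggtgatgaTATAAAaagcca
CXCL1, chr4:73869293-73869373, plus strand: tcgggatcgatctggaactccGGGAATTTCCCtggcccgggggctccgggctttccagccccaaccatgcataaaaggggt
CXCL2, chr4:74099215-74099295, minus strand: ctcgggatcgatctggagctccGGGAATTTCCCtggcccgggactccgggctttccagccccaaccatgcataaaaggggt
CXCL3, chr4:74038709-74038789, minus strand: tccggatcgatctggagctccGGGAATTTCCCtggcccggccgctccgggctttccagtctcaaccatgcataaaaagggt
NFKB1, chr4:102501289-102501339, plus strand: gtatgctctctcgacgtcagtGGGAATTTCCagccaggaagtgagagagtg
NFKBIA, chr14:35404769-35404849, minus strand: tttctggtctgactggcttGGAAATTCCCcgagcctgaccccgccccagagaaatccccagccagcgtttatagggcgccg
TNFAIP3, chr6:137867169-137867239, plus strand: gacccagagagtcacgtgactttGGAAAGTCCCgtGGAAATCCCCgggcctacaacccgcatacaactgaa
BIRC3, chr11:102317274-102317364, plus strand: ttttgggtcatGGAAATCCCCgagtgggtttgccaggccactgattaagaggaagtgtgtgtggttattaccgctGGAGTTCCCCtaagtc

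The site GGAATTTCC stood in the windows of 6 of the 9 genes (CXCL1, CXCL2, CXCL3, CXCL8, NFKB1 and NFKBIA) and in 0.461% of all 35116 RefSeq windows. The broader kappa B consensus stood in 8 of the 9, all but CXCL8, and in 5.91% of all windows. TNFAIP3 and BIRC3 each held 2 matches to the consensus and none to GGAATTTCC. TGANTCA was found in CXCL8 alone among the 9 (7.71% of all windows). TATAAA was found in CXCL8 and, on the strand opposite to the gene, in NFKBIA (11.5%). Around the site the chemokine genes CXCL1, CXCL2 and CXCL3 are close copies: of 49 bases, CXCL1 shared 41 with CXCL2 and 45 with CXCL3, against 22 with CXCL8. A match describes these letters only.

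Crotonate raised CXCL8 and TNFAIP3 and lowered NFKB1 and NFKBIA, with either siRNA. CXCL8 rose 1.90-fold with non-targeting siRNA and 1.62-fold with DAXX siRNA, and TNFAIP3 1.49-fold and 1.68-fold. NFKB1 fell to 0.81 and 0.83 of its level, and NFKBIA to 0.85 and 0.82. BIRC3 was also called with non-targeting siRNA, at 1.37-fold, which makes 3 higher and 2 lower of the 10, where limma called 13.1% of all tested genes higher and 2.34% lower (15.4% in all). With DAXX siRNA 2 were called higher and 2 lower, against 13% and 2.41% of all genes (again 15.4% in all). The libraries with and without crotonate did not overlap in 3 genes upward and 2 downward with each siRNA, against 16% and 4.11% of all genes with non-targeting siRNA and 14.7% and 3.99% with DAXX siRNA. The median log2 change of the 10 was 0.48 and 0.33, against 0.074 and 0.061 for all genes tested. The 2 comparisons share no library but rest on the same estimate of the spread, from all RNA libraries. Changes of these genes can come from more or fewer cells that express them or from more or less RNA per cell, which bulk libraries cannot tell apart.

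**Figure D1:**
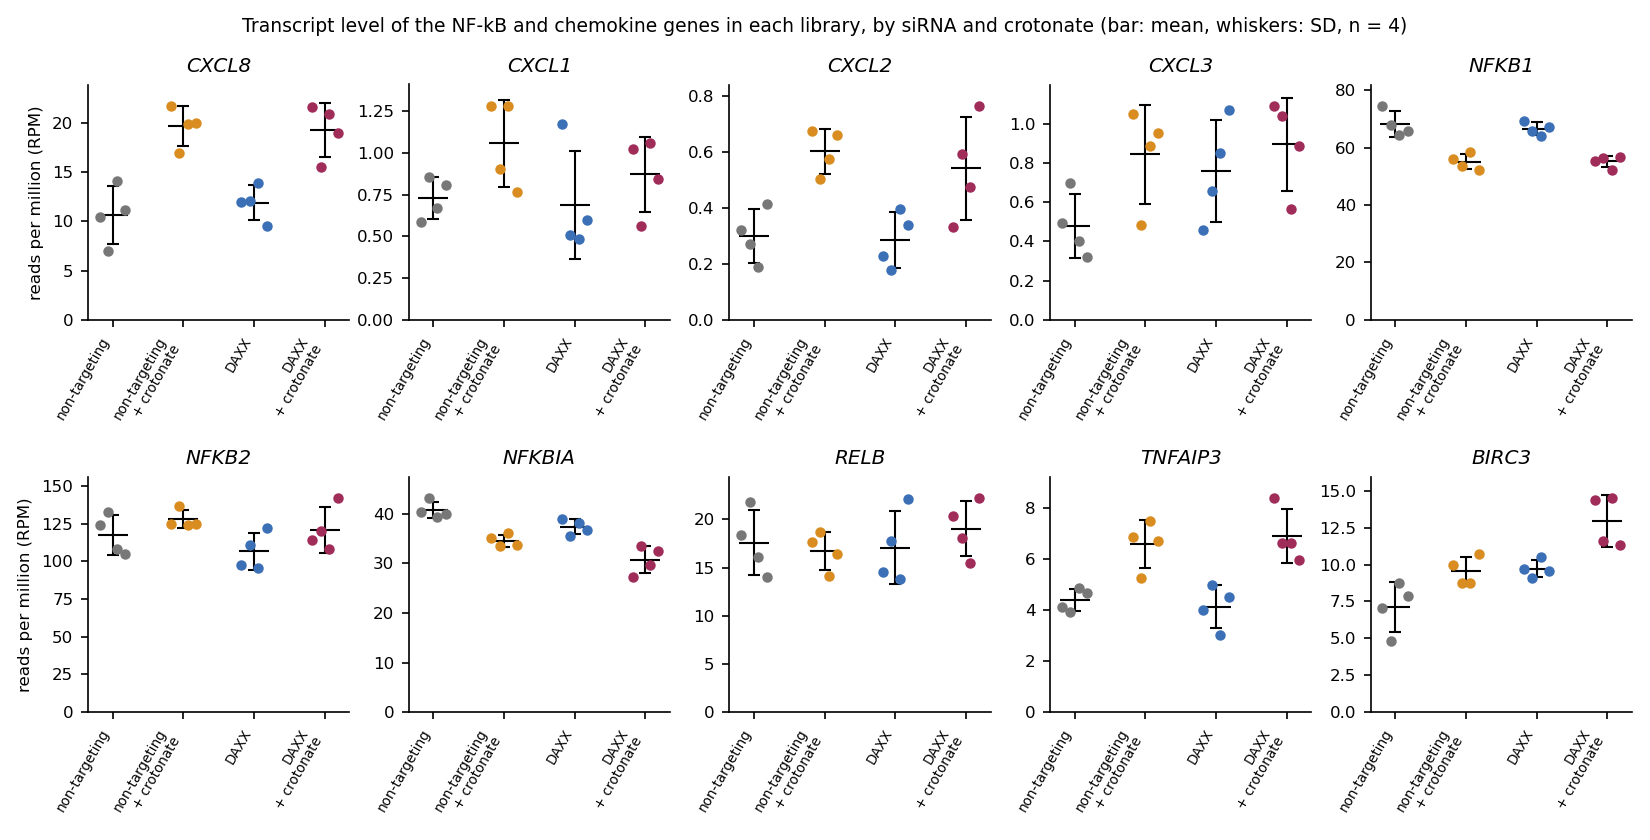
Transcript level in RPM (vertical axis, linear from 0, its own scale for each gene) of the 10 genes in every RNA library, by siRNA and crotonate; points are libraries, the bar is the mean and the whiskers the SD of 4. For CXCL8 and TNFAIP3 every library with crotonate lies above every library with the same siRNA and no crotonate, and for NFKB1 and NFKBIA below.

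CXCL8 encodes interleukin 8, a chemokine that attracts neutrophils (ENSG00000169429, chromosome 4, 73740541 to 73743716, plus strand). With non-targeting siRNA its 4 libraries held 10.4, 6.94, 14.1 and 11.1 RPM without crotonate and 21.7, 16.9, 19.9 and 20 RPM with it. The lowest treated library lay above the highest untreated one. In log2 the change was 0.92 (SE 0.167, 4 libraries a side, adjusted p = 0.000663 by limma). With DAXX siRNA the values were 12, 12.1, 13.9 and 9.55 RPM without and 21.6, 15.5, 20.9 and 19.0 RPM with crotonate, again with no overlap. This change was 0.70 (95% interval 0.35 to 1.05, adjusted p = 0.00688). Both calls held in 16 of 16 alternative settings.

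CXCL2, CXCL1 and CXCL3 encode the GRO chemokines, ligands of the receptor CXCR2, and were sparse here. CXCL2 (ENSG00000081041, chromosome 4, 74097040 to 74099196, minus strand) had 7 to 37 reads per library. It stood at 0.321, 0.270, 0.187 and 0.415 RPM with non-targeting siRNA and at 0.673, 0.502, 0.573 and 0.661 RPM with crotonate added. These groups did not overlap, and the log2 change of 1.06 (95% interval 0.30 to 1.83) missed the threshold (adjusted p = 0.0563). Without the fourth untreated library it was 1.24 and passed (adjusted p = 0.0387). With DAXX siRNA the values were 0.228, 0.177, 0.397 and 0.338 RPM without and 0.332, 0.592, 0.473 and 0.763 RPM with crotonate, where the first treated library lay below 2 of the untreated ones. That change was 0.93 (adjusted p = 0.0986).

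CXCL3 and CXCL1 were called in neither crotonate comparison. CXCL3 (chromosome 4, 74036589 to 74038807) had 0.496, 0.698, 0.401 and 0.318 RPM with non-targeting siRNA and 1.05, 0.482, 0.887 and 0.952 RPM after crotonate. The second treated library lay among the untreated ones, and without it the log2 change rose from 0.82 (adjusted p = 0.114) to 1.07 (adjusted p = 0.048). With DAXX siRNA the change of CXCL3 was 0.26 (95% interval -0.44 to 0.97). CXCL1 (chromosome 4, 73869393 to 73871242) was at 0.73 ± 0.125 RPM (SD, n = 4) and 1.06 ± 0.261 RPM without and with crotonate under non-targeting siRNA, and at 0.69 ± 0.323 and 0.87 ± 0.225 RPM under DAXX siRNA. Its log2 changes were 0.52 and 0.40, with groups that overlapped in both. The likeness given above is of promoter DNA only, and likeness of the transcripts was not measured. Reads of CXCL1, CXCL2 and CXCL3 could be assigned to the wrong one. This was not tested, so their single values are uncertain.

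TNFAIP3, whose product A20 shuts down signalling to the IkB kinase complex (ENSG00000118503, chromosome 6, 137867214 to 137883312, plus strand), rose in both crotonate comparisons. With non-targeting siRNA it went from 4.11, 3.94, 4.87 and 4.69 RPM to 6.86, 5.28, 7.51 and 6.71 RPM, with no overlap. The log2 change was 0.58 (SE 0.155, adjusted p = 0.0145). Leaving out the third treated library brought it to 0.51 and an adjusted p of 0.0573, and quantile scaling to 0.35 (adjusted p = 0.134). With DAXX siRNA it went from 4.01, 4.98, 3.04 and 4.53 RPM to 8.40, 6.65, 6.64 and 5.96 RPM. Here too the groups were apart, and the change of 0.75 (adjusted p = 0.00206) held in 16 of 16 alternatives. An antisense gene, AL357060.1, overlaps TNFAIP3 with 0 to 12 reads per library.

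BIRC3 encodes cIAP2, a ligase that keeps the alternative NF-kB branch in check (ENSG00000023445, chromosome 11, 102317450 to 102339403, plus strand). With non-targeting siRNA it held 7.06, 4.80, 8.74 and 7.84 RPM without crotonate and 9.96, 8.77, 8.73 and 10.7 RPM with it. The third untreated library lay just above the third treated one, so the groups overlapped, and the second untreated library was the lowest. Its log2 change of 0.45 (adjusted p = 0.0433) was lost in 10 of 16 alternatives, among them each of 6 libraries left out in turn (both of the first 2 untreated ones and all 4 treated ones, adjusted p = 0.0564 to 0.132), and was 0.28 without the second untreated library. Centring each library on its median gene also ended it (0.32, adjusted p = 0.137), as did quantile scaling (0.27, adjusted p = 0.284). With DAXX siRNA BIRC3 had 9.72, 9.08, 10.5 and 9.58 RPM without and 14.4, 11.6, 14.5 and 11.3 RPM with crotonate. These groups did not overlap, but the change of 0.41 was not called (adjusted p = 0.0725).

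NFKBIA, the gene of IkB alpha (ENSG00000100906, chromosome 14, 35401511 to 35404749, minus strand), fell with both siRNAs. With non-targeting siRNA it was at 40.3, 43.1, 39.4 and 40.0 RPM and with crotonate at 35.0, 33.5, 36.0 and 33.6 RPM. Every treated library was below every untreated one. The log2 change was -0.24 (SE 0.0749, adjusted p = 0.0365), a call lost without any 1 of 7 of the 8 libraries (all but the third untreated one), where the change was -0.21 to -0.26 and the adjusted p 0.053 to 0.0959. With DAXX siRNA the values were 38.9, 35.5, 38.1 and 36.7 RPM and 27.3, 33.4, 29.6 and 32.5 RPM. That change, -0.28 (adjusted p = 0.0127), kept its call in 16 of 16 alternatives.

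NFKB1 encodes p105, the precursor of the p50 subunit (ENSG00000109320, chromosome 4, 102501331 to 102617302, plus strand), and was the subunit gene that crotonate changed. It was at 74.5, 67.7, 64.2 and 65.9 RPM with non-targeting siRNA and at 56.0, 53.7, 58.5 and 52.3 RPM with crotonate. With DAXX siRNA it was at 69.4, 65.9, 63.9 and 67.2 RPM and at 55.3, 56.3, 52.3 and 56.8 RPM. In both comparisons the treated libraries were all below the untreated ones. The log2 changes were -0.30 (SE 0.0681, adjusted p = 0.00406) and -0.27 (adjusted p = 0.00928), and both calls held in 16 of 16 alternatives.

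NFKB2 and RELB, the subunit genes of the alternative branch, were not called in either. NFKB2 encodes p100, the precursor of p52 (ENSG00000077150, chromosome 10, 102394110 to 102402524, plus strand), with group means of 118 ± 13.3, 128 ± 6.26, 107 ± 12.3 and 121 ± 15.1 RPM (SD, n = 4) for non-targeting siRNA without and with crotonate and DAXX siRNA without and with it. Its crotonate changes were 0.13 (95% interval -0.08 to 0.34) and 0.18 (-0.03 to 0.39). RELB, the partner of p52 (ENSG00000104856, chromosome 19, 45001449 to 45038198, plus strand), had means of 17.6 ± 3.34, 16.7 ± 1.95, 17.1 ± 3.79 and 19.0 ± 2.89 RPM. The intervals of its changes, -0.39 to 0.26 and -0.15 to 0.49, both exclude a 1.5-fold change.

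**Figure D2:**
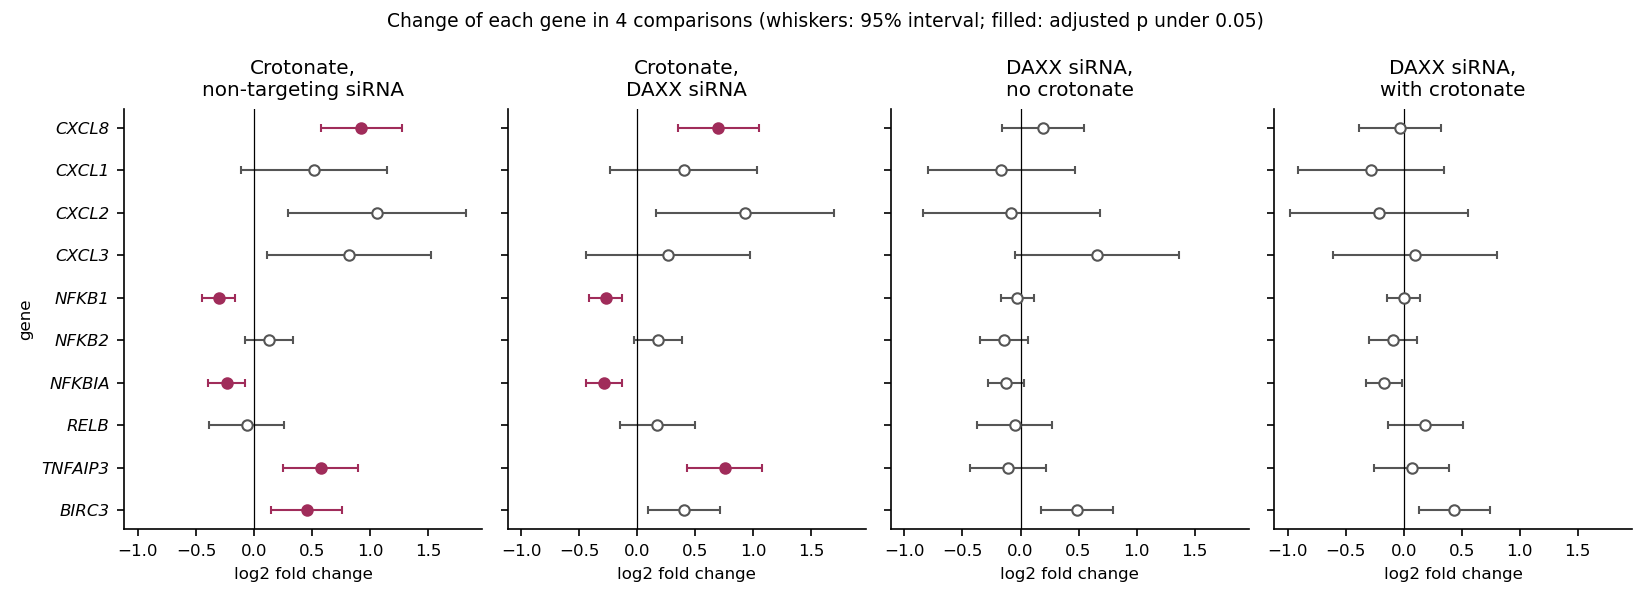
Log2 fold change (horizontal axis) of the 10 genes in 4 comparisons, with 95% intervals from limma; filled points passed an adjusted p of 0.05. Crotonate with non-targeting siRNA has 5 filled points and crotonate with DAXX siRNA 4, and the panels for DAXX siRNA have none.

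Scaling bears on the direction of small crotonate changes. Centring each library on its median tested gene lowered all changes by 0.129 with non-targeting siRNA and 0.116 with DAXX siRNA, and moved the share of higher genes among all calls from 84.8% to 46.2% and from 84.4% to 50.4%. Of the 10 genes, CXCL8 and TNFAIP3 were then called higher and NFKB1 and NFKBIA lower in both comparisons, where 8.11% and 9.46% of all genes were called higher and lower with non-targeting siRNA and 8.43% and 8.28% with DAXX siRNA.

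The mean of the crotonate effects with each siRNA, taken from the same fit and chosen after the data were seen, uses all 16 libraries. It called CXCL8 (0.81), TNFAIP3 (0.66), CXCL2 (0.99, adjusted p = 0.00668) and BIRC3 (0.43, adjusted p = 0.00405) higher, and NFKB1 (-0.29) and NFKBIA (-0.26) lower. Among all genes this mean called 21.9% higher and 5.92% lower. CXCL2 kept that call in 20 of 20 alternatives, and BIRC3 lost it under quantile scaling (adjusted p = 0.0868). CXCL3 (0.54, adjusted p = 0.101), CXCL1 (0.46, adjusted p = 0.121), NFKB2 and RELB were not called.

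DAXX siRNA changed none of the 10 past the threshold, without crotonate (0.406% of all genes called) or with it (1.06%). By limma-voom none was called either. At an unadjusted limma p under 0.05 there was 1 of the 10 without crotonate (BIRC3), against 12.2% of all genes, and 2 with it (BIRC3 and NFKBIA), against 10.9%, shares near the background. The smallest p in both was that of BIRC3. Its 4 libraries with DAXX siRNA, from 9.08 to 10.5 RPM, all lay above the 4 with non-targeting siRNA, from 4.80 to 8.74 RPM. With crotonate the 4 from 11.3 to 14.5 RPM lay above the 4 from 8.73 to 10.7 RPM. The log2 changes were 0.48 (SE 0.148, adjusted p = 0.191) and 0.44 (adjusted p = 0.209). These 2 comparisons share no library but rest on the same estimate of the spread, from all RNA libraries.

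Their mean, again chosen after the data were seen, was 0.46 for BIRC3 (95% interval 0.24 to 0.68, limma adjusted p = 0.0154), where 1.57% of all genes were called higher and 2.23% lower. It was called in 20 of 20 alternatives, with adjusted p from 0.00591 to 0.0408. So BIRC3 was highest in the group that had both DAXX siRNA and crotonate, at 13.0 ± 1.74 RPM, against 7.11 ± 1.69 RPM in the group with neither, 9.54 ± 0.964 RPM with crotonate alone and 9.73 ± 0.599 RPM with DAXX siRNA alone. The 2 groups with 1 of the treatments overlapped. The comparisons of crotonate and of DAXX siRNA share the libraries that had neither.

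NFKBIA lay lower with DAXX siRNA in each state with no overlap of the libraries, but its changes of -0.13 and -0.17 (adjusted p = 0.522 and 0.379) and their mean of -0.15 (adjusted p = 0.129) were not called. Across the 10 genes the libraries were apart in 1 gene upward (BIRC3) and 1 downward (NFKBIA) in each comparison, against 2.69% and 3.46% of all genes without crotonate and 3.55% and 4.94% with it. CXCL3 had a log2 change of 0.66 without crotonate (adjusted p = 0.45) and 0.10 with it. CXCL8 was at 0.19 and -0.03, so with crotonate the interval of -0.38 to 0.32 excludes a 1.5-fold change.

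No member differed in its crotonate response between the siRNAs by the interaction test, with an adjusted p of 0.995 for each of the 10. By limma the interaction called 0 of 17973 genes, 433 had an unadjusted p under 0.05, and limma-voom also called 0. The 95% interval of the interaction ran from -0.17 to 0.23 for NFKB1, from -0.72 to 0.27 for CXCL8 and from -1.22 to 0.95 for CXCL2, so for the sparse chemokines large differences were not detectable at this depth.

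Genes whose level followed CXCL8 most closely over the 16 libraries, among 8987 genes at or above the median level, were TMEM65 (Pearson r = 0.958), RALGPS2 (0.953), TMEM56 (0.9497), NAB1 (0.947) and CD47 (0.943). The points share libraries and the same crotonate contrast, so these values describe the pattern only. TMEM65, for example, was at 27.5 and 49.0 RPM without and with crotonate under non-targeting siRNA and at 32.0 and 50.9 RPM under DAXX siRNA.

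Of 115 further pathway genes in 6 lists, 77 could be tested, and crotonate raised 13 and lowered 4 with non-targeting siRNA and raised 8 and lowered 3 with DAXX siRNA. Among all genes 13.1% and 13% were called higher and 2.34% and 2.41% lower. The median log2 change of the 77 was 0.085 and 0.069, close to the 0.074 and 0.061 of all genes. Under quantile scaling the calls were 7 higher and 11 lower with non-targeting siRNA, and under centring 11 were lower. Among all 17973 genes quantile scaling called 1424 higher and 1010 lower, and centring called 1701 (9.46%) lower. The receptor side held the interleukin 1 receptor genes IL1R1, which rose by 0.91 with either siRNA (adjusted p = 5.80e-05 with non-targeting siRNA), and IL1RAP, its accessory chain, which rose by 1.04 and 1.25. TLR5, the receptor of bacterial flagellin, rose from 0.854 ± 0.155 to 2.06 ± 0.378 RPM with non-targeting siRNA and from 0.719 ± 0.231 to 2.26 ± 0.15 RPM with DAXX siRNA. TNFRSF1A, the main TNF receptor gene, fell by 0.22 with non-targeting siRNA (adjusted p = 0.0471, lost in 8 of 16 alternatives, 5 of them with 1 library left out).

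Of 24 kinase and adaptor genes TRAF5 alone was called, at 0.38 (adjusted p = 0.0309, lost in 8 of 16 alternatives, 6 of them with 1 library left out), and of 7 other subunit and IkB genes NFKBIZ alone, at 0.65 (lost under quantile scaling), both with non-targeting siRNA. Among 13 ubiquitin and feedback genes CYLD, a deubiquitinase that restrains the pathway, rose by 0.42 with either siRNA, a call that centring and quantile scaling ended in both. CXCR4, the receptor of CXCL12, rose by 1.21 with non-targeting siRNA (adjusted p = 0.0142) and was not called with DAXX siRNA (0.75, adjusted p = 0.136), nor was its interaction. CXCR1, a receptor of interleukin 8, went from 3 reads in all 4 untreated libraries to 47 in the treated ones and from 4 to 34 with DAXX siRNA. It was called with non-targeting siRNA (adjusted p = 0.0262, lost in 7 of 15 alternatives, 6 of them with 1 library left out) and not with DAXX siRNA (adjusted p = 0.0994), and the interaction was not called.

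Other known targets went in both directions. LCN2, the siderophore-binding protein of the epithelium, fell from 2.53 ± 0.16 to 0.878 ± 0.0843 RPM (log2 change -1.53) and from 2.73 ± 0.448 to 1.08 ± 0.297 RPM (-1.37). CFLAR, the inhibitor of caspase 8, fell by 0.48 and 0.41. PTGS2, the inducible cyclooxygenase, rose by 1.35 and 1.00, the second call lost in 3 of 16 alternatives (quantile scaling, and without the fourth untreated or the second treated library). IER3, an early response gene, rose by 0.45 and 0.28, the second call lost in 8, 5 of them with 1 library left out. Comparing DAXX siRNA with non-targeting siRNA, 1 of the 77 was called, where 0.306% of all genes were called lower without crotonate and 0.668% with it. This gene, TNFRSF10B, a death receptor of TRAIL, fell by 0.38 without crotonate and by 0.36 with it (adjusted p = 0.00236 and 0.00219), the first call lost when only its 2 groups were fitted.

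**Figure D3:**
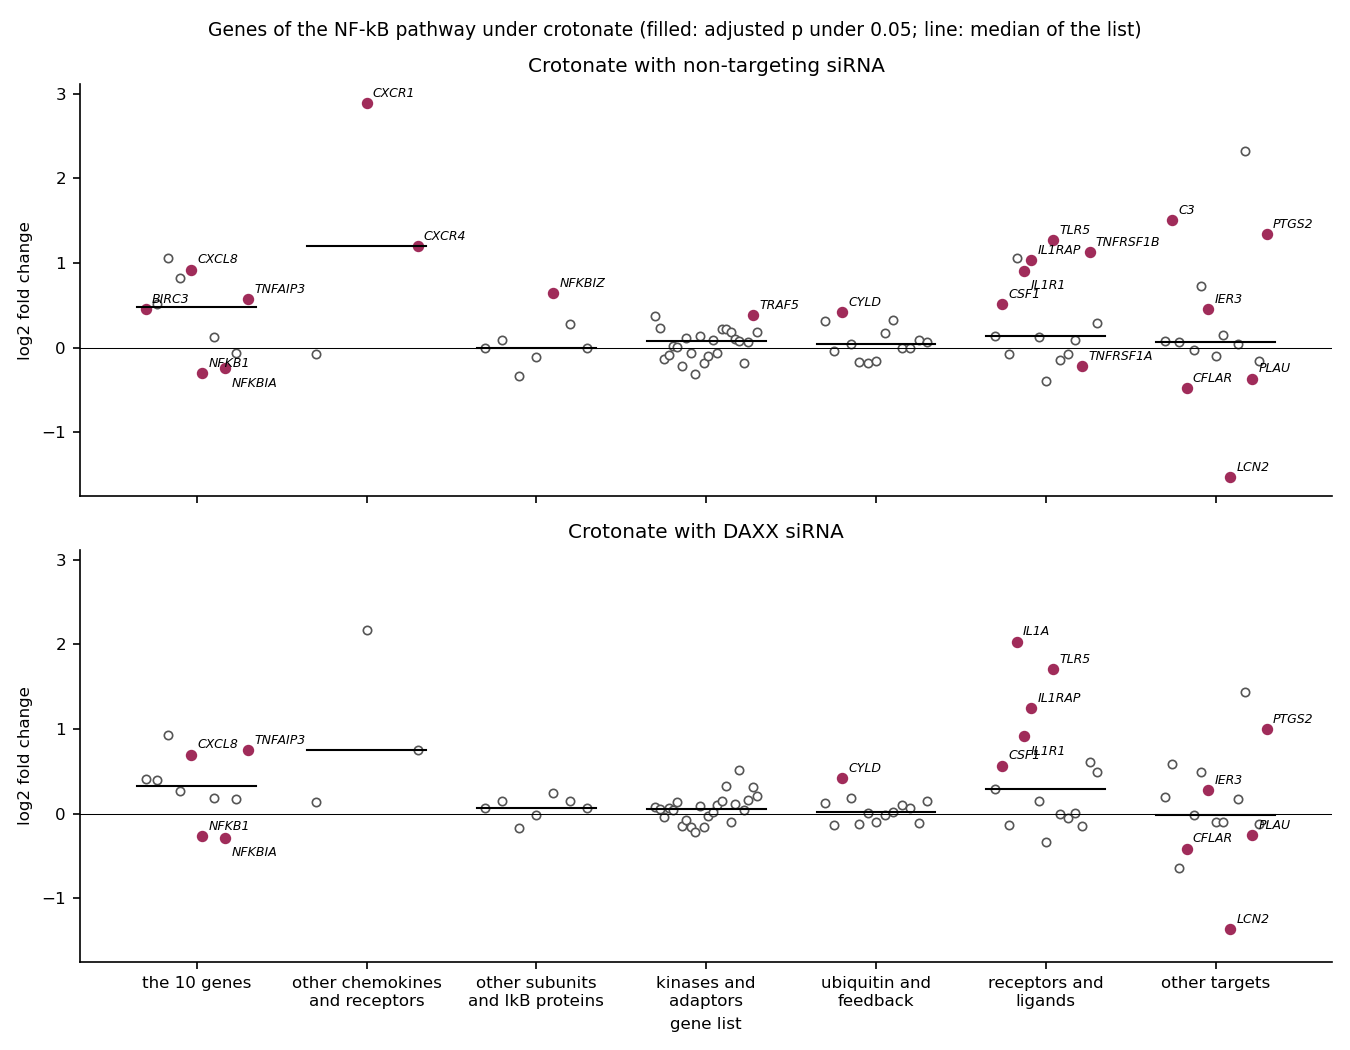
Log2 fold change (vertical axis) under crotonate of the 10 genes and of 77 other pathway genes in 6 lists, with non-targeting siRNA above and DAXX siRNA below; each point is a gene, filled where the adjusted p was under 0.05, and the line is the median of the list. Of the 24 kinase and adaptor genes TRAF5 alone is filled, in the upper panel, and LCN2 is the lowest filled point in both panels (the position of CXCR1 depends on the value entered for 0 reads).

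Anti-Kcr regions were listed for 5 of the 10 genes by symbol: 1 each for CXCL2, NFKB2 and NFKBIA, 5 for RELB and 3 for BIRC3. A region with no symbol ended at -391 bases from the start of CXCL8, and another, listed under AF213884.3, covered the start of NFKB1. For CXCL1, CXCL3 and TNFAIP3 no region lay within 2 kb. At the regions at or nearest the 7 starts, the mean signal without crotonate under non-targeting siRNA was 1.86 to 2.87 times the input, where the median of all regions was 2.05. The stretches printed above for CXCL2, NFKB1, NFKBIA and BIRC3 lie inside such regions.

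None of the 11 regions carrying a member's symbol was called in any comparison. Crotonate with non-targeting siRNA called 0.194% of all regions, crotonate with DAXX siRNA 0.00601%, and both DAXX siRNA comparisons 0. At an unadjusted p under 0.05 by limma there were 4 of the 11 for crotonate with non-targeting siRNA (19% of all regions), 3 with DAXX siRNA (10.9%) and 0 for DAXX siRNA without or with crotonate (3.01% and 3.82%), and limma-voom called 0 of the 11. With libraries 1A and 1B merged, 0 of all regions were called for crotonate with either siRNA. By log2 change 10 of the 11 were negative with each siRNA, with a median of -0.42 and -0.26, but so were 77.2% and 73.4% of all regions, whose medians were -0.23 and -0.17. Beyond the symbol rule, the region over the start of NFKB1 (chromosome 4, 102500251 to 102502500) was called lower with crotonate and non-targeting siRNA. Its signal, in reads scaled by 1 factor per library, was 92.5, 63.3, 59.9 and 69.1 in libraries 1A, 1B, 2 and 3 and 33.7 and 37.4 in the 2 with crotonate. Both treated values were below all 4 untreated ones and above the input (28.6).

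That log2 change of -0.98 (SE 0.216, adjusted p = 0.0421) lost its call in 9 of 12 alternatives. Centring on the median region gave -0.79 (adjusted p = 0.129), and merging 1A with 1B gave -0.94 (adjusted p = 0.185). Leaving out any 1 of the 6 libraries but untreated library 3 also ended it (-0.85 to -1.06, adjusted p = 0.0597 to 0.167). With DAXX siRNA the signal was 65.0, 68.9, 68.8 and 69.8 without and 53.9 and 33.9 with crotonate. That change of -0.67 was not called (adjusted p = 0.322), and it was called without the treated library at 53.9 (-1.01, adjusted p = 0.0345). The RNA of NFKB1 fell by 0.30 and 0.27 in the same comparisons, and the region overlaps 2 genes.

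**Figure D4:**
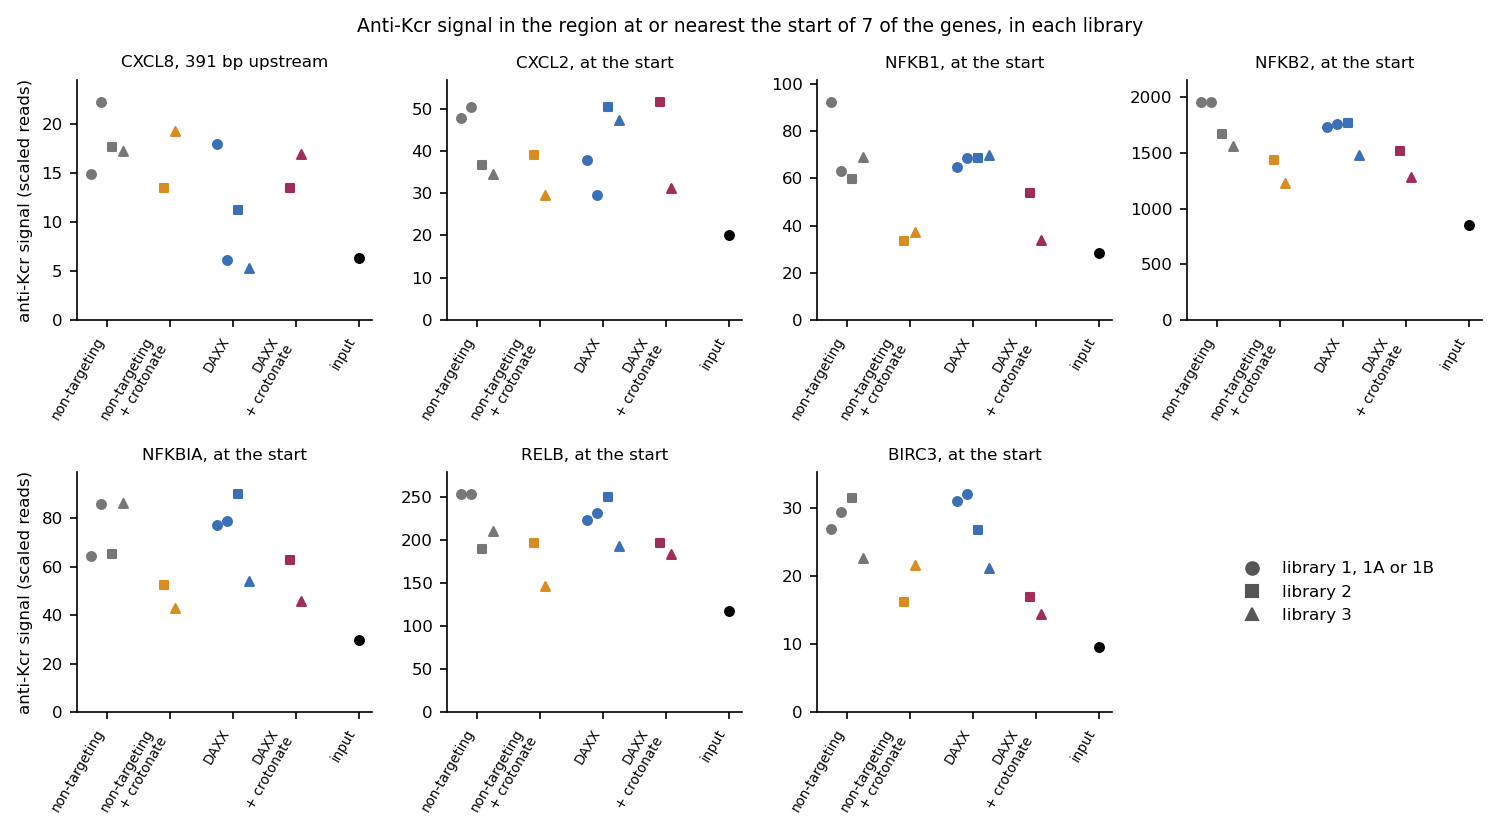
Anti-Kcr signal in scaled reads (vertical axis, linear from 0, its own scale for each gene) in the region at or nearest the start of 7 of the genes, by group and library; the input is 1 library. At NFKB1 both libraries with crotonate and non-targeting siRNA (33.7 and 37.4) lie below all 4 without crotonate, and CXCL8 values rest on 4 to 19 reads.

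At NFKBIA the start region (chromosome 14, 35402701 to 35405400) went from 75.5 ± 10.5 (SD, n = 3, with 1A and 1B as 1 sample) to 47.8 ± 6.65 (n = 2) with non-targeting siRNA, a log2 change of -0.65 that was not called (adjusted p = 0.104). The start region of BIRC3 (chromosome 11, 102316951 to 102318150) was at 27.3 ± 4.41 and 18.8 ± 3.81 with non-targeting siRNA and at 26.4 ± 5.21 and 15.6 ± 1.78 with DAXX siRNA, with changes of -0.55 (adjusted p = 0.291) and -0.81 (adjusted p = 0.346) that were not called. These counts were small, 11 to 31 reads per library. The RNA of BIRC3 lay higher in the same comparisons, by 0.45 and 0.41, the second not called. The region of NFKB2 is 52.05 kb long and spans 4 genes, so its change of -0.42 (adjusted p = 0.0769) is not that of NFKB2 alone.

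Upstream of CXCL8 (chromosome 4, 73739401 to 73740150) 4 to 19 reads per library gave 17.9 ± 0.674 without and 16.4 ± 4.11 with crotonate under non-targeting siRNA, and 9.53 ± 3.71 and 15.2 ± 2.45 under DAXX siRNA. The crotonate changes were -0.15 (95% interval -0.98 to 0.68) and 0.75 (-0.08 to 1.58), neither called. Because the input was not subtracted, these changes cannot be compared in size with those of the CXCL8 transcript. The start region of CXCL2 had changes of -0.30 and -0.01, and that of RELB -0.41 and -0.23, none called.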

How the data were processed

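The 10 genes, the pathway lists and the tests were chosen with earlier results of these data known. Per the submitters' processing notes, reads were trimmed with Trim Galore 0.6.2 (RNA) or 0.6.5 (ChIP) and cutadapt 2.3, aligned with HISAT2 2.2.1 or Bowtie2 to GRCh38, and ChIP regions came from MACS. The sources used here do not state the counting tool or strand. The deposited values of both tables are log2. By their steps, RNA is log2 RPM with no division by gene length and 0 reads entered as 0.9 read, and ChIP is log2 reads times 1 factor per library, with the input not subtracted. Undoing the factors gave whole reads for 100% of values (tolerance 0.01 read). ChIP libraries held 2.23 to 3.64 M reads in regions and the input 1.72 M.

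Genes and regions were tested with limma 3.58.1 (R 4.3.3), fitting a mean for each group with a trended variance prior, and Benjamini-Hochberg adjustment over all 17973 genes or 49916 regions. A call is an adjusted p under 0.05. Intervals are 95%. P-values measure only the spread between libraries, which may be technical, since the labels do not say whether they are separate cultures. ChIP libraries 1A and 1B differed by no more than read sampling with non-targeting siRNA (chi-squared p = 0.132) and slightly more with DAXX siRNA (p = 0.0251, against at most 2.18e-08 for other pairs of 1 group), so means count them as 1 sample, while the fit keeps them apart. Of the other pathway genes, up to 2 called genes per list, direction and comparison with the smallest adjusted p were named, and for likeness the 5 highest correlations with CXCL8. The region nearest each start was named, with any called one.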

Additional observations from a re-analysis of the deposited data

Results flagged for a closer look

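NFKB2 in the group with non-targeting siRNA and crotonate had 1 library apart from the other 3: the second held 137 RPM against 124 to 125 RPM. The gap to its neighbour was 0.892 of the range of the group on the log2 scale, above Dixon's 95% critical value for 4 samples. It was 1 of 40 groups examined (10 genes in 4 groups), and chance flags about 1 in 20 groups. NFKB2 was not called in any comparison.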

How the results depend on the processing

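Calls of CXCL8 and NFKB1 in both crotonate comparisons, and of TNFAIP3 and NFKBIA with DAXX siRNA, held in 16 of 16 alternatives. With non-targeting siRNA the number of the 10 called higher was 1 under quantile scaling (3 in the main test) and 1 to 4 with 1 library left out, and the number called lower was 1 with only the 2 groups fitted (2 in the main test) and 1 to 2 with 1 library left out. Taking the mean effect over both states gave 4 called higher for crotonate and 1 for DAXX siRNA. Other pathway genes called higher with crotonate and non-targeting siRNA numbered 7 under quantile scaling, and those called lower 11 under quantile scaling or centring. Among all 17973 genes quantile scaling called 1424 higher and 1010 lower, and centring called 1701 lower. With DAXX siRNA the figures were 4 higher under quantile scaling (1448 of all genes) and 5 lower under centring (1488 of all genes). For DAXX siRNA without crotonate, 2 pathway genes were called lower with no filter and 0 with only the 2 groups fitted. With crotonate, 1 was called higher with no filter, 2 lower with the replicate block, and 1 to 2 lower with 1 library left out.

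Replicate numbers were not taken as pairing the libraries, since not every correlation was over 0.1. Same-numbered RNA libraries had correlations of deviations from -0.251 to 0.188 (median 0.065, different numbers -0.187 to 0.309, median -0.024). ChIP libraries had -0.001 to 0.095 (median 0.047, different numbers -0.095 to 0.057, median -0.0235). In both assays the same-numbered pairs had the higher median. ChIP libraries with crotonate are numbered 2 and 3 only, so untreated 1A and 1B have no treated counterpart. A replicate block in the ChIP fit moved the median crotonate change of all regions from -0.227 to -0.161 with non-targeting siRNA and from -0.167 to -0.102 with DAXX siRNA. With the replicate block BIRC3 was called for crotonate with DAXX siRNA (0.41, adjusted p = 0.0348), and 1 region with a member's symbol, that of NFKB2, was called lower for crotonate with non-targeting siRNA (-0.32, adjusted p = 0.0023). The block called 1396 of all 49916 regions lower there, against 97 in the main fit. Leaving out 1 ChIP library gave 0 to 1 regions with a member's symbol there. The 1 came without untreated library 3, where 1880 of all regions were called lower.

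In 16 cases a sign reversed, none of them called in either fit. RELB for crotonate with non-targeting siRNA ran from -0.17 to 0.047 with 1 library left out and was 0.054 as a mean effect. For DAXX siRNA with crotonate, CXCL8 ran from -0.10 to 0.067 and was 0.081 as a mean effect, and CXCL3 ran from -0.15 to 0.31. The anti-Kcr region of CXCL8 with non-targeting siRNA was 0.049 when centred and -0.41 to 0.11 with 1 library left out. That of CXCL2 with DAXX siRNA was 0.13 when centred, 0.022 by limma-voom, 0.15 under quantile scaling and -0.37 to 0.35 with 1 library left out. The cause was not tested in any of these. CXCL2 gave no value under the filter of at least 1 RPM, which it did not pass. Depth limits the 3 sparse chemokines (7 to 69 reads per library) and the anti-Kcr regions of CXCL8 and BIRC3, as do 2 crotonate libraries per siRNA in ChIP.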
